A study of Mus musculus with 6 samples.

Results

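The E2F transcription factors, E2f1 to E2f8, and their dimer partners, Tfdp1 and Tfdp2, were followed at the mRNA level in 3 lines of immortalized mouse embryonic fibroblasts (iMEF), fibroblasts that divide in culture indefinitely. The 10 genes were taken by gene symbol from a table of 22369 protein-coding genes. All 10 had a mean of at least 0.5 RPKM (read counts scaled to the exon length of the gene and to the mapped reads of the library), the level required for testing, as did 11598 genes in all. RNA-seq was performed with 2 libraries per line from asynchronously growing cells of C57BL/6 origin. Nrdc-/-WT iMEF are Nrdc-/- cells infected with a lentivirus that expresses wild-type Nrdc (nardilysin, a metalloendopeptidase that also acts as a transcriptional coregulator), Nrdc-/- iMEF came from Nrdc-deficient mice, and Nrdc+/+ iMEF came from wild-type mice. The Nrdc-/- libraries served 2 of the 3 comparisons described here, Nrdc-/- v.s. Nrdc+/+ and Nrdc-/-WT v.s. Nrdc-/-, which are therefore not independent. No library of cells with an empty lentivirus was analysed here, so infection and regained Nrdc cannot be told apart in Nrdc-/-WT iMEF. How many embryos or clones stand behind each line is not given in the sources used here, and the methods call the replicates biological, a few passages after viral infection, without saying what separates them. The p-values measure only the spread between these libraries, part of which may be technical.

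E2F proteins bind promoters of genes for DNA replication and cell cycle progression. The classical E2Fs do so as dimers with a Dp protein, and the pocket proteins Rb, p107 and p130 hold them in check until cyclin-dependent kinases phosphorylate the pocket proteins in G1. E2f1, E2f2 and E2f3 are known as activators, E2f4 and E2f5 mainly carry pocket proteins to promoters in resting cells, E2f6 represses without binding pocket proteins, and E2f7 and E2f8 are atypical repressors that bind DNA without a Dp partner.

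The libraries held 16385565 to 19764315 reads over the listed genes. Nrdc itself, listed under its older symbol Nrd1, was at 5.89 and 5.40 RPKM in Nrdc-/-WT cells, 1.53 and 1.51 RPKM in Nrdc-/- and 27.9 and 28.9 RPKM in Nrdc+/+ iMEF. Its order among the lines followed the labels, and the mRNA in Nrdc-/-WT iMEF stayed below that of Nrdc+/+ iMEF. For the protein, the authors reported similar levels in Nrdc-/-WT and Nrdc+/+ iMEF by immunoblotting and immunocytochemistry. The summed RPKM of 8 fibroblast markers was 4681 to 4698 in Nrdc-/-WT, 3589 to 3663 in Nrdc-/- and 2901 to 3238 in Nrdc+/+ iMEF, led by Vim and Fn1, whereas Thy1 was at 0 reads in both Nrdc-/- libraries and at 0.510 RPKM or less elsewhere. Within that list, Col3a1 was at 258 to 282 RPKM in the 4 libraries on the Nrdc-/- background, against 36.7 and 37.6 RPKM in Nrdc+/+ iMEF, and Pdgfra at 51.3 to 55.4 RPKM, against 5.02 and 4.38 RPKM in Nrdc+/+ iMEF. Markers of other cell types were low, with a summed level of at most 3.78 RPKM for macrophages, where Emr1 was at 0 reads in all 6 libraries, 1.70 RPKM for endothelium, 0.512 RPKM for epithelium and 0.299 RPKM for skeletal muscle, where Myod1 and Myog were at 0 reads. Both Nrdc-/- libraries stood highest in the macrophage sum through Lyz2 (3.26 and 3.57 RPKM), and both Nrdc+/+ libraries in the endothelial sum through Kdr (1.57 and 1.24 RPKM). The part of these markers in the results below was not tested.

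Several E2F genes are themselves known as E2F targets, so the 250 bases before the RefSeq start were searched for E2F-type letters (TTTCCCGC, TTTGGCGC, TTTGCCGC or TTTCGCGC, on either strand). Windows were on hand for 8 of the 10 genes (12 windows in all, E2f4 and E2f5 being the genes without one). Of the 32851 windows in the same RefSeq table (GRCm38.p6), 611 (1.86%) held such letters. Among the windows of the family, 4 did, and they belonged to E2f3, E2f7 and Tfdp1. RefSeq and the mm9 annotation place some starts differently: the E2f1 window lay wholly in an annotated E2f1 exon (250 exon bases, 188 of them coding), and both Tfdp2 windows and the other windows of E2f2, E2f3 and Tfdp1 ended inside their genes, so that the search did not cover the bases before the annotated start of E2f1 or Tfdp2. One window each of E2f3, E2f7 and Tfdp1 and, for contrast, that of E2f6, whose mRNA differed most between Nrdc-/- and Nrdc+/+ iMEF, are shown 5′ to 3′ on the strand of the gene, with the E2F-type letters in capitals. All 4 matches were on the opposite strand, so that TTTCCCGC reads as GCGGGAAA and TTTCGCGC as GCGCGAAA.
E2f3: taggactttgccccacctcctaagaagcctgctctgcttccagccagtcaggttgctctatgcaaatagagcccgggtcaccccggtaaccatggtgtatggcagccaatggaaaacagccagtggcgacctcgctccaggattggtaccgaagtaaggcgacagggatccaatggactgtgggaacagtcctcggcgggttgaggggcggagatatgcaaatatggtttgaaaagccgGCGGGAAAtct
E2f7: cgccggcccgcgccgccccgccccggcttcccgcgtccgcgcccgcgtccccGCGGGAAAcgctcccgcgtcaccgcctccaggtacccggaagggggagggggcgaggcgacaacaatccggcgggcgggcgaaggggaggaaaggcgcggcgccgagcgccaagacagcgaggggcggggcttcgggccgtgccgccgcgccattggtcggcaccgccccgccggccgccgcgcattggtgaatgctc
Tfdp1: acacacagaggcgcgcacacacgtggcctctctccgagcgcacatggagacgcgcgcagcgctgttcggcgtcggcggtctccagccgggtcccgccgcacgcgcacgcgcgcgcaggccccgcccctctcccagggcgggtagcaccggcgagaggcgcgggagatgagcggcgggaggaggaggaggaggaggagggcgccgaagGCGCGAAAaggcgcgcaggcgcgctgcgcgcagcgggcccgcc
E2f6: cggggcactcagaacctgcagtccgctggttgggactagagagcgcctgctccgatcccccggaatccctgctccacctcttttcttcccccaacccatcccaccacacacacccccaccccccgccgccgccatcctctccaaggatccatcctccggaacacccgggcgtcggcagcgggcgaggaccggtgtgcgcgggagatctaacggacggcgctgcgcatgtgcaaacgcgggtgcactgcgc

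These windows matched the mm9 genome exactly and once each, at chr13:30077933-30078182 on the minus strand for E2f3, chr10:110182245-110182494 on the plus strand for E2f7, chr8:13338501-13338750 on the plus strand for Tfdp1 and chr12:16817521-16817770 on the plus strand for E2f6. None of them touched an annotated exon of its gene. Those of E2f7, Tfdp1 and E2f6 ended directly before the annotated gene, and that of E2f3 ended 396 bases before it. Counted back from the RefSeq start, the letters lay at bases -11 to -4 in E2f3, -198 to -191 in E2f7 and -43 to -36 in Tfdp1, and those of Tfdp1 recurred in its other, overlapping window. CCAAT, the core of the NF-Y element, stood on either strand in 5 of the 12 windows, in E2f2, E2f3, E2f7 and E2f8, against 33.85% of all windows. The letters TTTGAA or TTTAAA, as found in the CHR element that the MuvB complex binds, stood in 5 windows, in E2f2, E2f3, E2f8 and Tfdp2, against 25.17% of all windows. A match describes letters and not a bound site.

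Tfdp1 was the most abundant of the 10 mRNAs in all 3 lines, and E2f4 and E2f1 were the most abundant E2Fs. In Nrdc-/-WT iMEF the order of mean RPKM was Tfdp1, E2f4, E2f1, E2f5, E2f3, Tfdp2, E2f8, E2f7, E2f6 and E2f2, and only E2f7 and E2f6 overlapped between neighbours. In Nrdc-/- iMEF it was Tfdp1, E2f1, E2f4, E2f5, E2f3, E2f8, Tfdp2, E2f6, E2f2 and E2f7, with overlap between E2f1 and E2f4 and between E2f2 and E2f7. In Nrdc+/+ iMEF it was Tfdp1, E2f4, E2f1, E2f5, E2f3, Tfdp2, E2f6, E2f8, E2f7 and E2f2, with overlap between E2f5 and E2f3 and between E2f8 and E2f7. By mean RPKM over the 6 libraries Tfdp1 stood at percentile 96.5 of all listed genes, E2f4 at 90.7 and E2f1 at 85.0, and E2f2, the lowest, at 51.5. The plot of RPKM by library shows that most of these genes were highest in both Nrdc+/+ libraries.

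**Figure D1:**
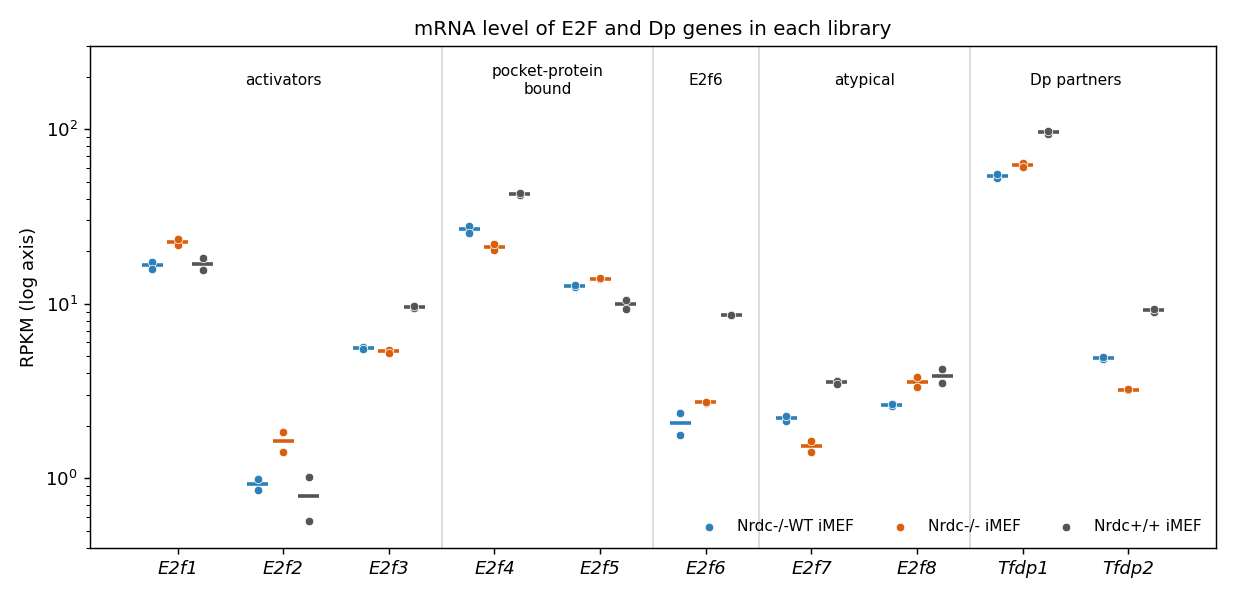
RPKM of the 10 genes on a log axis, grouped by role, with 1 point per library, a bar at the mean of 2 libraries, and colours for Nrdc-/-WT, Nrdc-/- and Nrdc+/+ iMEF from left to right. E2f3, E2f4, E2f6, E2f7, Tfdp1 and Tfdp2 were highest in both Nrdc+/+ libraries, while E2f1, E2f2 and E2f5 were highest in both Nrdc-/- libraries.

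Most of the family had less mRNA in Nrdc-/- iMEF. In Nrdc-/- v.s. Nrdc+/+ iMEF, E2f3, E2f4, E2f6, E2f7, Tfdp1 and Tfdp2 fell and E2f1, E2f2 and E2f5 rose, by an adjusted p under 0.05 in limma with Benjamini-Hochberg adjustment over all 11598 tested genes and a fold of at least 1.3. Thus 9 of 10 genes were called, against 62.1% of all tested genes, 6 of 10 were lower, against 30.2%, and 3 of 10 were higher, against 32%. Their median log2 fold change was -0.71, beside 0.01 over all tested genes, and the range ran from -1.58 for E2f6 to 0.88 for E2f2. In these bulk libraries, fewer cells in a phase that uses a gene and less RNA per cell cannot be told apart. In BrdU labelling of growing cells, the authors found no significant difference in cell cycle phase proportions between Nrdc+/+ and Nrdc-/- iMEF. They also reported weaker proliferation of Nrdc-/- iMEF, and slower passage through the cell cycle after BrdU labelling and after serum starvation. The G2/M fraction was smaller in Nrdc-/-WT iMEF than in Nrdc-/- iMEF with an empty virus. How these differences bear on the mRNA levels was not tested.

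Between Nrdc-/-WT and Nrdc-/- iMEF, the family was divided. E2f7 and Tfdp2 rose and E2f1, E2f2 and E2f8 fell in Nrdc-/-WT v.s. Nrdc-/- iMEF, so that 5 of 10 genes were called, against 43.2% of all tested genes, with 2 higher, against 20.5%, and 3 lower, against 22.7%. The share of called genes was near that of all genes. The median log2 fold change of the 10 was -0.18, beside -0.02 over all tested genes. In the third comparison, of Nrdc-/-WT with Nrdc+/+ iMEF, E2f3, E2f4, E2f6, E2f7, E2f8, Tfdp1 and Tfdp2 were lower, so that 7 of 10 were called, against 60.4% of all tested genes, a share near that of all genes. All 7 were lower, against 30.6%, and 0 of 10 were higher, against 29.9% (limma, Benjamini-Hochberg). At an unadjusted p under 0.05, 1 gene, E2f5, had a positive log2 fold change there (0.34, under 1.3-fold), and limma with voom weights on recovered reads also called 0 higher. With quantile normalization, however, E2f5 was called higher, and without Nrdc+/+ replicate 2 it passed 1.3-fold. Fold changes here are on the scale of log2(RPKM + 0.25), which understates those of low genes such as E2f2.

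**Figure D2:**
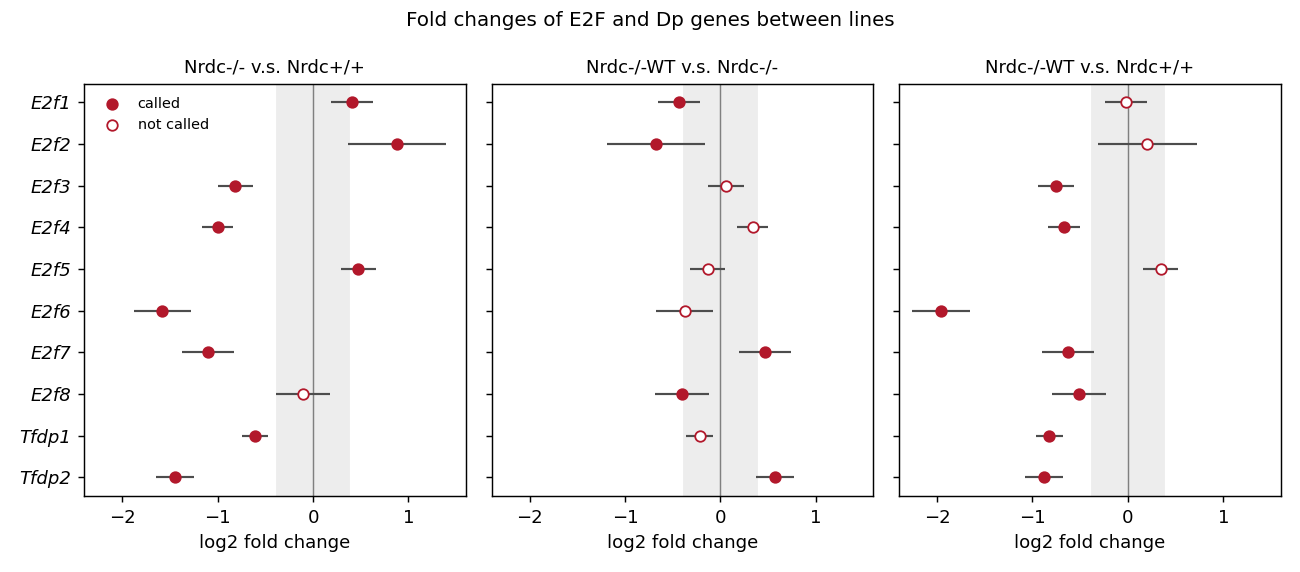
Log2 fold change of each gene in the 3 comparisons, with its 95% interval from limma, filled points for called genes and a grey band for changes under 1.3-fold in either direction. In Nrdc-/- v.s. Nrdc+/+ 9 of 10 points are filled, in Nrdc-/-WT v.s. Nrdc-/- 5 and in Nrdc-/-WT v.s. Nrdc+/+ 7, which all lie left of 0.

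Among the activators, E2f1 and E2f2 were highest without Nrdc, and E2f3 was highest in Nrdc+/+ iMEF. E2f1 (ENSMUSG00000027490, chr2:154385143-154395628 of mm9), which is known to drive S phase entry and, when in excess, apoptosis, was at 17.4 and 15.8 RPKM in Nrdc-/-WT cells, 21.6 and 23.4 RPKM in Nrdc-/- and 18.3 and 15.5 RPKM in Nrdc+/+ iMEF. Both Nrdc-/- libraries were above the other 4, which overlapped. E2f1 rose in Nrdc-/- v.s. Nrdc+/+ by a log2 fold change of 0.41 ± 0.09 (SE, adjusted p = 0.00433 by limma), or 1.33 times in the means. In Nrdc-/-WT v.s. Nrdc-/- it fell, at -0.43 ± 0.09 (adjusted p = 0.00488). Between Nrdc-/-WT and Nrdc+/+ iMEF the log2 fold change was -0.02, with a 95% interval of -0.24 to 0.20. The first call was lost without Nrdc-/- replicate 2 (0.35) or without Nrdc+/+ replicate 2 (0.30), and that against Nrdc-/- iMEF without Nrdc-/-WT replicate 2 (-0.36) or without Nrdc-/- replicate 2 (-0.37). Of 3201 windows of 50 bases in E2f1 transcripts, 33 also occur in transcripts of other coding genes.

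E2f2 (ENSMUSG00000018983, chr4:135728309-135751972), an activator best known from blood cells, was low in all 6 libraries, at 89 and 90 reads in Nrdc-/-WT, 120 and 163 reads in Nrdc-/- and 101 and 57 reads in Nrdc+/+ iMEF. These reads gave 0.855 and 0.988 RPKM in Nrdc-/-WT cells, 1.42 and 1.84 RPKM in Nrdc-/- and 1.02 and 0.565 RPKM in Nrdc+/+ iMEF. Both Nrdc-/- libraries were again highest, and the 2 Nrdc-/-WT values lay between the 2 Nrdc+/+ values. E2f2 rose in Nrdc-/- v.s. Nrdc+/+ by 0.88 ± 0.22 (SE, log2 scale, adjusted p = 0.0072 by limma) and fell in Nrdc-/-WT v.s. Nrdc-/-, at -0.68 ± 0.22 (adjusted p = 0.0309). The log2 fold change between Nrdc-/-WT and Nrdc+/+ was 0.20, with a 95% interval of -0.31 to 0.72. The first call was lost without Nrdc-/- replicate 2 (0.72, adjusted p = 0.0682). The call in Nrdc-/-WT v.s. Nrdc-/- was lost without any 1 of the 4 libraries compared, at adjusted p-values of 0.0567 to 0.185 by limma, and with no filter on low values (adjusted p = 0.0903).

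E2f3 (ENSMUSG00000016477, chr13:29998444-30077537), whose alternative promoters give a longer and a shorter protein that gene counts do not separate, was at 5.68 and 5.48 RPKM in Nrdc-/-WT cells, 5.46 and 5.24 RPKM in Nrdc-/- and 9.497 and 9.678 RPKM in Nrdc+/+ iMEF. The 2 lines on the Nrdc-/- background lay close together, and both were well below Nrdc+/+ iMEF. E2f3 fell in Nrdc-/- v.s. Nrdc+/+, at -0.81 ± 0.08 (SE, log2 scale, adjusted p = 3.34e-05 by limma). Nrdc-/-WT v.s. Nrdc-/- gave 0.06, with a 95% interval of -0.13 to 0.25, so that any change there was under 1.3-fold. In Nrdc-/-WT v.s. Nrdc+/+ it fell, at -0.76 ± 0.08 (adjusted p = 5.49e-05). The ratio of E2f1 to E2f3 RPKM was accordingly 3.07 and 2.89 in Nrdc-/-WT, 3.95 and 4.47 in Nrdc-/- and 1.92 and 1.61 in Nrdc+/+ iMEF.

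E2f4 and E2f5, the E2Fs that carry p107 and p130, moved in opposite directions. E2f4 (ENSMUSG00000014859, chr8:107821563-107829269) is known from the DREAM repressor complex of resting cells, which also holds p130. It was at 27.96 and 25.32 RPKM in Nrdc-/-WT cells, 20.2 and 21.8 RPKM in Nrdc-/- and 41.8 and 42.9 RPKM in Nrdc+/+ iMEF. No library of one line overlapped with another line. It fell in Nrdc-/- v.s. Nrdc+/+, at -1.001 ± 0.072 (SE, log2 scale, adjusted p = 4.72e-06 by limma), which left 0.497 of the Nrdc+/+ mean. In Nrdc-/-WT v.s. Nrdc-/- the value was 0.34 ± 0.07 (adjusted p = 0.00444), or 1.27 times in the means, under the 1.3-fold required for a call. Without Nrdc-/-WT replicate 2 it was 0.41 and without Nrdc-/- replicate 2 it was 0.39, which were called. In Nrdc-/-WT v.s. Nrdc+/+ E2f4 fell, at -0.67 ± 0.07 (adjusted p = 5.87e-05).

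E2f5 (ENSMUSG00000027552, chr3:14578671-14606308), a partner mainly of p130, was at 12.5 and 12.8 RPKM in Nrdc-/-WT cells, 13.8 and 13.9 RPKM in Nrdc-/- and 9.36 and 10.5 RPKM in Nrdc+/+ iMEF. Both lines on the Nrdc-/- background were above both Nrdc+/+ libraries. E2f5 rose in Nrdc-/- v.s. Nrdc+/+, at 0.48 ± 0.08 (SE, log2 scale, adjusted p = 0.000656 by limma). Nrdc-/-WT v.s. Nrdc-/- gave -0.13, with a 95% interval of -0.31 to 0.05. Nrdc-/-WT v.s. Nrdc+/+ gave 0.34 ± 0.08 (adjusted p = 0.00427), under 1.3-fold, and 0.42 without Nrdc+/+ replicate 2, which was called. The ratio of E2f4 to E2f5 RPKM was 2.24 and 1.98 in Nrdc-/-WT, 1.46 and 1.57 in Nrdc-/- and 4.47 and 4.08 in Nrdc+/+ iMEF.

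E2f6 differed most of the 10 genes between the lines with and without endogenous Nrdc. E2f6 (ENSMUSG00000057469, chr12:16817771-16833549), which lacks the pocket protein binding region and works with the Polycomb complex PRC1.6 in silencing germline genes, was at 2.35 and 1.77 RPKM in Nrdc-/-WT (123 and 81 reads), 2.71 and 2.74 RPKM in Nrdc-/- (115 and 122 reads) and 8.67 and 8.62 RPKM in Nrdc+/+ iMEF (433 and 437 reads). The Nrdc+/+ libraries stood far above the other 4, and the Nrdc-/-WT libraries were the lowest. E2f6 fell in Nrdc-/- v.s. Nrdc+/+, at -1.58 ± 0.13 (SE, log2 scale, adjusted p = 1.08e-05 by limma), or 0.315 of the Nrdc+/+ mean, and in Nrdc-/-WT v.s. Nrdc+/+, at -1.96 ± 0.13 (adjusted p = 3.46e-06). In Nrdc-/-WT v.s. Nrdc-/- the value was -0.38 ± 0.13 (adjusted p = 0.037), just under 1.3-fold. It passed 1.3-fold without Nrdc-/-WT replicate 1 (-0.56) and with a pseudocount of 0.05 RPKM (-0.41).

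The atypical E2Fs, which repress E2F targets late in S phase, separated from each other. E2f7 (ENSMUSG00000020185, chr10:110182495-110224440) was at 2.13 and 2.27 RPKM in Nrdc-/-WT cells, 1.42 and 1.63 RPKM in Nrdc-/- and 3.60 and 3.48 RPKM in Nrdc+/+ iMEF. The 3 lines did not overlap, and Nrdc-/-WT iMEF lay between the others. E2f7 fell in Nrdc-/- v.s. Nrdc+/+, at -1.10 ± 0.12 (SE, log2 scale, adjusted p = 5.02e-05 by limma), and rose in Nrdc-/-WT v.s. Nrdc-/-, at 0.47 ± 0.12 (adjusted p = 0.00921). It remained lower in Nrdc-/-WT v.s. Nrdc+/+, at -0.63 ± 0.12 (adjusted p = 0.00141). The rise was no longer called without Nrdc-/-WT replicate 2 (0.43, adjusted p = 0.0626), without Nrdc-/- replicate 1 (0.38, adjusted p = 0.0566) or with a pseudocount of 1 RPKM (0.34). Of 8016 windows of 50 bases in E2f7 transcripts, 39 also occur in transcripts of other coding genes.

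E2f8 (ENSMUSG00000046179, chr7:56121799-56136966) was at 2.58 and 2.68 RPKM in Nrdc-/-WT cells, 3.32 and 3.81 RPKM in Nrdc-/- and 4.21 and 3.52 RPKM in Nrdc+/+ iMEF. Both Nrdc-/-WT libraries were the lowest, and Nrdc-/- and Nrdc+/+ iMEF overlapped. Nrdc-/- v.s. Nrdc+/+ gave a log2 fold change of -0.11, with a 95% interval of -0.39 to 0.18 (adjusted p = 0.451 by limma), the only one of the 10 genes without a call there. E2f8 fell in Nrdc-/-WT v.s. Nrdc-/-, at -0.40 ± 0.12 (SE, adjusted p = 0.0225), and in Nrdc-/-WT v.s. Nrdc+/+, at -0.51 ± 0.12 (adjusted p = 0.00566). The call against Nrdc-/- iMEF was lost without either Nrdc-/-WT library (-0.38 without replicate 1 and -0.43 without replicate 2), without Nrdc-/- replicate 2 (-0.31), with no filter on low values (adjusted p = 0.0542) and with a pseudocount of 1 RPKM (-0.33). E2f8 shares 274 of its 5447 exon bases with the antisense lincRNA Gm2788, and since the strand setting of the counting is not given, reads of the 2 cannot be told apart there. The ratio of E2f7 to E2f8 RPKM was 0.824 and 0.849 in Nrdc-/-WT, 0.427 and 0.428 in Nrdc-/- and 0.856 and 0.988 in Nrdc+/+ iMEF.

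Both Dp partners were lower in the lines on the Nrdc-/- background, and only Tfdp2 was called higher in Nrdc-/-WT v.s. Nrdc-/- iMEF. Tfdp1 (ENSMUSG00000038482, chr8:13338751-13378395), which encodes the main dimer partner DP1, was at 52.3 and 55.6 RPKM in Nrdc-/-WT cells, 64.4 and 61.0 RPKM in Nrdc-/- and 94.4 and 97.0 RPKM in Nrdc+/+ iMEF. The 3 lines did not overlap, with Nrdc-/-WT iMEF lowest. Tfdp1 fell in Nrdc-/- v.s. Nrdc+/+, at -0.61 ± 0.06 (SE, log2 scale, adjusted p = 3.43e-05 by limma), and in Nrdc-/-WT v.s. Nrdc+/+, at -0.83 ± 0.06 (adjusted p = 6.19e-06). Nrdc-/-WT v.s. Nrdc-/- gave -0.22 ± 0.06 (adjusted p = 0.0158), under 1.3-fold.

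Tfdp2 (ENSMUSG00000032411, chr9:96096694-96224065), the other Dp gene, was at 4.82 and 4.94 RPKM in Nrdc-/-WT cells, 3.20 and 3.22 RPKM in Nrdc-/- and 9.02 and 9.35 RPKM in Nrdc+/+ iMEF. The lines were again apart, with Nrdc-/-WT iMEF in the middle. Tfdp2 fell in Nrdc-/- v.s. Nrdc+/+, at -1.45 ± 0.09 (SE, log2 scale, adjusted p = 1.45e-06 by limma), or 0.35 of the Nrdc+/+ mean. It rose in Nrdc-/-WT v.s. Nrdc-/-, at 0.57 ± 0.09 (adjusted p = 0.000692), a call that held without each library in turn, and stayed lower in Nrdc-/-WT v.s. Nrdc+/+, at -0.88 ± 0.09 (adjusted p = 3.05e-05). The ratio of Tfdp1 to Tfdp2 RPKM was 10.8 and 11.3 in Nrdc-/-WT, 20.1 and 18.9 in Nrdc-/- and 10.5 and 10.4 in Nrdc+/+ iMEF.

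Summed over the 8 E2F genes, RPKM averaged 69.3 ± 3.10 in Nrdc-/-WT, 72.2 ± 3.18 in Nrdc-/- and 95.6 ± 1.14 in Nrdc+/+ iMEF (SD, n = 2 each). The 2 Dp genes together averaged 58.8 ± 2.46 RPKM in Nrdc-/-WT cells, 65.9 ± 2.41 RPKM in Nrdc-/- and 105 ± 2.06 RPKM in Nrdc+/+ iMEF. Dp mRNA thus exceeded the summed mRNA of all 8 E2F genes in both Nrdc+/+ libraries and stayed below it in the other 4. E2f7 and E2f8, which bind DNA without a Dp partner, are part of that sum. In Nrdc-/- replicate 1 the Dp sum (67.6 RPKM) was below the E2F sum (70.0 RPKM) by less than the 4.74 RPKM of E2f7 and E2f8. The activators took 33.4% ± 0.238 of the E2F sum in Nrdc-/-WT, 40.8% ± 0.17 in Nrdc-/- and 28.5% ± 1.88 in Nrdc+/+ iMEF, with means and SD over 2 libraries. E2f6 took 2.96% ± 0.462 in Nrdc-/-WT, 3.78% ± 0.133 in Nrdc-/- and 9.04% ± 0.077 in Nrdc+/+ iMEF. E2f4 and E2f5 took 56.7% ± 0.149 in Nrdc-/-WT, 48.4% ± 0.411 in Nrdc-/- and 54.7% ± 2.31 in Nrdc+/+ iMEF. The ratio of summed activator RPKM to E2f4 RPKM was 0.858 and 0.880 in Nrdc-/-WT, 1.41 and 1.40 in Nrdc-/- and 0.689 and 0.601 in Nrdc+/+ iMEF, so that only the Nrdc-/- libraries held more activator than E2f4 mRNA. These sums and ratios are descriptions without a test.

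**Figure D3:**
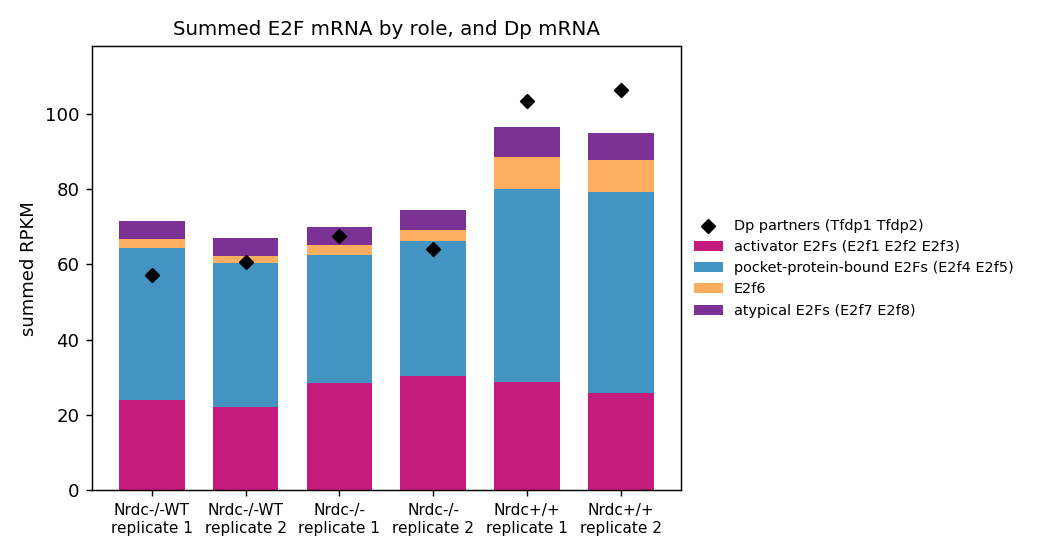
Summed RPKM of the E2F genes by role in each library as stacked bars, and of the 2 Dp genes as diamonds, with Nrdc-/-WT, Nrdc-/- and Nrdc+/+ libraries from left to right. The bars reach 67.1 to 74.5 RPKM in the 4 libraries on the Nrdc-/- background and 94.8 and 96.4 RPKM in Nrdc+/+ iMEF, where the Dp diamonds lie above the bars.

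Genes that act on E2Fs or with them were then described by lists drawn from general knowledge, some of which share genes, with no set test. The lists were chosen with earlier results of these data known. Some of their genes, such as Cdt1 and Ccnf, are Nrdc targets that the authors selected with this same RNA-seq. The counts below are therefore descriptions and no independent support. Of the 3 pocket proteins, 2 rose in Nrdc-/- v.s. Nrdc+/+ (median 1.26, beside 0.01 over all tested genes, of which 32% were higher). Rb1, the pocket protein of the activators, averaged 2.502 RPKM in Nrdc-/-WT cells, 5.43 RPKM in Nrdc-/- and 2.12 RPKM in Nrdc+/+ iMEF, and rose by 1.26 ± 0.11 in Nrdc-/- v.s. Nrdc+/+ (SE, log2 scale, adjusted p = 1.64e-05 by limma) and fell in Nrdc-/-WT v.s. Nrdc-/-, at -1.04 ± 0.11 (adjusted p = 0.000105). Rbl2, which encodes p130, averaged 16.6 RPKM in Nrdc-/-WT cells, 13.1 RPKM in Nrdc-/- and 3.76 RPKM in Nrdc+/+ iMEF, with a rise of 1.74 in Nrdc-/- v.s. Nrdc+/+ and a value of 0.33, under 1.3-fold, in Nrdc-/-WT v.s. Nrdc-/-. Rbl1, which encodes p107 and is itself an E2F target, had -0.23 in Nrdc-/- v.s. Nrdc+/+ (adjusted p = 0.0531) and fell in Nrdc-/-WT v.s. Nrdc-/-, at -0.47.

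The MuvB core, which joins either p130 with E2f4 or B-Myb, was mostly lower in Nrdc-/- iMEF, as E2f4 was. Of its 5 genes and Mybl2, which encodes B-Myb, 5 fell and 1 rose in Nrdc-/- v.s. Nrdc+/+, against 30.2% lower and 32% higher among all tested genes (median -0.87). The falls were -0.93 for Lin9, -0.54 for Lin52, -0.95 for Lin54, -0.81 for Rbbp4 and -1.10 for Mybl2, and Lin37 rose by 0.48. In Nrdc-/-WT v.s. Nrdc-/-, Rbbp4 rose by 0.59 and Mybl2 fell, at -0.40, and the others had no call (median 0.03).

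Upstream of the pocket proteins, 6 of 8 G1 cyclin and Cdk genes fell in Nrdc-/- v.s. Nrdc+/+, against 30.2% of all tested genes (median -0.80). Ccnd1, which encodes cyclin D1, averaged 45.6 RPKM in Nrdc-/-WT cells, 34.03 RPKM in Nrdc-/- and 198 RPKM in Nrdc+/+ iMEF, with a fall of 2.53 on the log2 scale in Nrdc-/- v.s. Nrdc+/+ and a rise of 0.42 in Nrdc-/-WT v.s. Nrdc-/-. By RT-PCR against Nrdc-/- cells with an empty virus, the authors found no significant rise of Ccnd1 in Nrdc-/-WT iMEF. Ccnd2 (-1.003), Cdk4 (-0.66), Cdk6 (-0.93), Ccne2 (-1.11) and Cdk2 (-0.56) also fell in Nrdc-/- v.s. Nrdc+/+, and Ccnd3 (0.23) and Ccne1 (-0.33) had no call. In Nrdc-/-WT v.s. Nrdc-/-, Ccnd3 rose besides Ccnd1 (0.46), and the other 6 had no call.

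The 7 Cdk inhibitor genes were divided, with 4 higher and 3 lower in Nrdc-/- v.s. Nrdc+/+, against 32% and 30.2% of all tested genes. Cdkn1a, which encodes p21, averaged 6.23 RPKM in Nrdc-/-WT cells, 28.05 RPKM in Nrdc-/- and 3.51 RPKM in Nrdc+/+ iMEF, with a rise of 2.91 in Nrdc-/- v.s. Nrdc+/+ and a fall of 2.13 in Nrdc-/-WT v.s. Nrdc-/- on the log2 scale. Cdkn2a, whose products p16 and p19Arf are counted as 1 gene, averaged 426 RPKM in Nrdc-/-WT cells, 5.77 RPKM in Nrdc-/- and 396 RPKM in Nrdc+/+ iMEF. Its neighbour Cdkn2b averaged 73.1 RPKM in Nrdc-/-WT cells, 1.07 RPKM in Nrdc-/- and 36.5 RPKM in Nrdc+/+ iMEF. Although derived from the Nrdc-/- line, Nrdc-/-WT iMEF stood nearer to Nrdc+/+ iMEF at both genes, and whether the lines differ in more than infection and Nrdc was not tested. Cdkn1b (1.37), Cdkn2c (2.07) and Cdkn2d (1.295) rose in Nrdc-/- v.s. Nrdc+/+, and Cdkn1c, at 11.4 RPKM in Nrdc+/+ iMEF, was close to 0 in the other lines, at means of 0.0121 RPKM (Nrdc-/-WT) and 0.0442 RPKM (Nrdc-/-).

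Downstream, 39 of 51 known E2F targets of S phase fell and 2 rose in Nrdc-/- v.s. Nrdc+/+, against 30.2% and 32% of all tested genes, with a median of -0.78. In Nrdc-/-WT v.s. Nrdc-/-, 25 rose and 3 fell, against 20.5% and 22.7%, with a median of 0.37. In Nrdc-/-WT v.s. Nrdc+/+, 24 were lower and 5 higher, against 30.6% and 29.9%, with a median of -0.34. Cdt1, which loads the replicative helicase, averaged 13.5 RPKM in Nrdc-/-WT cells, 6.56 RPKM in Nrdc-/- and 30.6 RPKM in Nrdc+/+ iMEF, with a fall of 2.18 in Nrdc-/- v.s. Nrdc+/+ and a rise of 1.01 in Nrdc-/-WT v.s. Nrdc-/-. Orc1, an origin recognition subunit, and Pole, the leading-strand polymerase, fell in Nrdc-/- v.s. Nrdc+/+ (-1.82 for Orc1, -1.48 for Pole) and rose in Nrdc-/-WT v.s. Nrdc-/- (0.59 for Orc1, 0.45 for Pole). At the other end, the histone chaperone Asf1b (0.79) and the origin subunit Orc6 (0.65) rose in Nrdc-/- v.s. Nrdc+/+, and Cdc45 had 0.20 without a call. In Nrdc-/- v.s. Nrdc+/+, E2f1 and E2f2 thus had the opposite direction to most of these genes, and E2f3 had the same direction.

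Among 15 mitotic genes of the MuvB and B-Myb group, 8 fell in Nrdc-/- v.s. Nrdc+/+, against 30.2% of all tested genes (median -0.50), and 6 rose in Nrdc-/-WT v.s. Nrdc-/-, against 20.5% (median 0.15). Ccnb2 (-1.96), Cdk1 (-1.21) and Cdc20 (-1.05) fell most among those with a mean of at least 2 RPKM, whereas Cenpf (-0.07), Aurkb (0.00) and Birc5 (0.12) had no call. Of 6 subunits of the ubiquitin ligases known to act on E2Fs, 4 fell in Nrdc-/- v.s. Nrdc+/+, against 30.2% (median -0.58), and 3 rose in Nrdc-/-WT v.s. Nrdc-/-, against 20.5% (median 0.47). Ccnf, which encodes cyclin F, fell in Nrdc-/- v.s. Nrdc+/+ (-0.48) and rose in Nrdc-/-WT v.s. Nrdc-/- (0.59), as did Skp2 (-0.74 and 0.66) and Cdc20 (-1.05 and 1.11). Cul1 fell in Nrdc-/- v.s. Nrdc+/+, at -0.68, and Fzr1 (-0.25) and Skp1a (0.29) had no call in either comparison.

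The PRC1.6 partners of E2f6 were lower in Nrdc-/- v.s. Nrdc+/+ in 5 of 9 cases, against 30.2% of all tested genes, and higher in 2, against 32% (median -0.41). Pcgf6, the subunit that defines PRC1.6, averaged 3.83 RPKM in Nrdc-/-WT cells, 0.421 RPKM in Nrdc-/- and 9.08 RPKM in Nrdc+/+ iMEF, with a fall of 3.80 in Nrdc-/- v.s. Nrdc+/+ and a rise of 2.61 in Nrdc-/-WT v.s. Nrdc-/-. L3mbtl2 (-1.33) and Yaf2 (-1.13) also fell in Nrdc-/- v.s. Nrdc+/+, the catalytic subunits Ring1 (1.56) and Rnf2 (0.39) rose, and Cbx3 had -0.19 without a call. The 5 germline genes known to be silenced by E2F6 (Stag3, Smc1b, Slc25a31, Tuba3a and Tuba3b) were at a mean of 0.128 RPKM or less in every line and were not tested. Smc1b had 5 and 10 reads in Nrdc-/-WT, 0 and 0 reads in Nrdc-/- and 1 and 0 reads in Nrdc+/+ iMEF. Tuba3a had 0 and 3 reads in Nrdc-/-WT, 0 and 7 reads in Nrdc-/- and 0 and 2 reads in Nrdc+/+ iMEF. Stag3, Slc25a31 and Tuba3b had at most 2 reads in any library. Reads this few cannot show a direction for the list.

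Apoptotic genes known as E2F1 targets had no common direction. In Nrdc-/- v.s. Nrdc+/+, Bcl2l11, which encodes Bim, rose by 1.12, Apaf1, the core of the apoptosome, fell, at -0.98, and Casp8 (0.00) and Bbc3 (-0.11) had no call. Pmaip1 was at 0 reads in both Nrdc-/- libraries and averaged 0.134 RPKM in Nrdc-/-WT iMEF, against 6.30 RPKM in Nrdc+/+ iMEF. In Nrdc-/-WT v.s. Nrdc-/-, where E2f1 fell, Bcl2l11 (-0.99) and Bbc3 (-0.91), which encodes Puma, fell too. Trp73 was close to 0 in all lines. The plot of fold changes by list places these groups side by side.

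**Figure D4:**
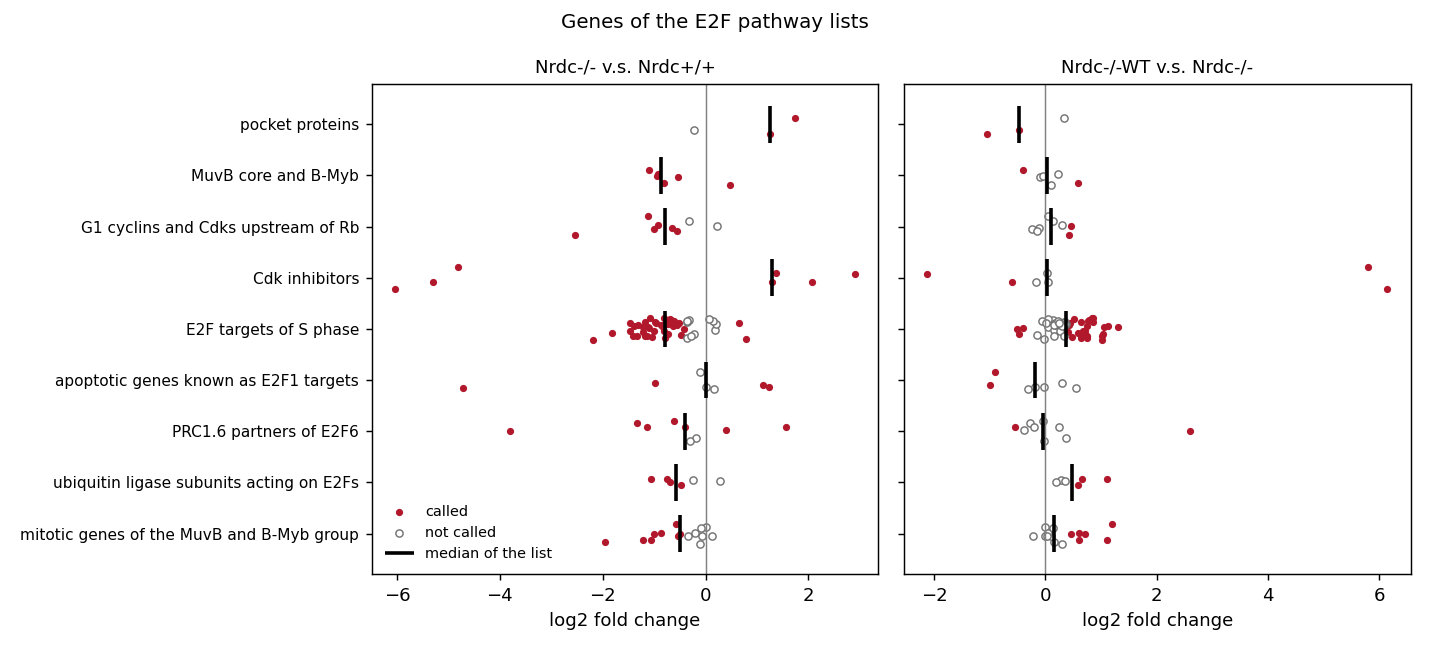
Log2 fold changes of the tested genes of 9 lists in Nrdc-/- v.s. Nrdc+/+ (left) and Nrdc-/-WT v.s. Nrdc-/- (right), with filled points for called genes and a bar at the median of each list. The S phase targets lie mostly left of 0 in the first panel (median -0.78) and mostly right of 0 in the second (median 0.37), and genes at 0 reads in a line, such as Pmaip1, are drawn at values that depend on the pseudocount.

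To place the genes among all tested genes, the 2 genes with the nearest pattern over the 6 libraries were found by the Euclidean distance of centred log2 values. Those nearest to E2f3 were Ammecr1l (0.0471) and Cdk13 (0.0638) and to E2f4 Mast2 (0.0859) and Socs6 (0.0903). The distances were largest for E2f2, with Gm6543 at 0.227 and March3 at 0.315, followed by E2f6, with Rgl1 at 0.158 and Pip4k2a at 0.267. Spread between replicates enters this distance, and E2f2 had only 57 to 163 reads per library. E2f1 was nearest to Pmm2 (0.102) and Tmem115 (0.110), E2f7 to Hdgf (0.0648) and Zwilch (0.0843), and E2f8 to Cox10 (0.122) and Dhx37 (0.123). Tfdp1 was nearest to Pfas (0.0690) and Tardbp (0.0749), and Tfdp2 to Nup133 (0.0633) and Ier5 (0.0928).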

How the data were processed

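RNA-seq of 6 libraries, 2 per line, was used. ChIP-seq and RT-PCR were not analysed here. The authors purified mRNA on oligo(dT) beads, sequenced it on Ion Proton machines, mapped reads to mm9 with STAR, sent unmapped ones to Bowtie2 (local mode), counted per gene with featureCounts of Subread and used edgeR for RPKM of Ensembl coding genes. For versions and strand setting, nothing is given in the sources used here. The deposited values are on a log2 scale with a constant of 0.912 to 1.124 added reads per library. It was taken off to give RPKM, and after scaling back by gene length and depth, 100% of the low values were whole reads within a tolerance of 0.05. Of 66 blank or date-like symbols, 35 were restored by gene ID.

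Tests used limma 3.58.1 in R 4.3.3 (lmFit, eBayes with trend) for genes averaging 0.5 RPKM or more, on log2(RPKM + 0.25) over all 6 libraries, two-sided, with Benjamini-Hochberg adjustment over 11598 genes. A call required both an adjusted p below 0.05 and a 1.3-fold difference. Residual degrees of freedom were 3 and prior degrees of freedom 4.98. Replicates correlated at 0.9936 to 0.9959 across genes and differed by more than sampling noise, with a chi-square of 4.13 to 8.80 per gene. The method was tested on simulated data. The simulation gave all genes and lines the same spread beyond sampling noise, so it did not cover a difference in spread between lines.

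The members, the lists and the rule for named genes (all 10 members, Nrdc, every gene of lists of 8 or fewer, the 3 highest and 3 lowest fold changes of longer lists in Nrdc-/- v.s. Nrdc+/+ at a mean of at least 2 RPKM, and the 2 nearest genes per member) were chosen with earlier results of these data known. Some items that this rule names are not reported here. Promoter windows came from RefSeq (GRCm38.p6) and were placed on NCBIM37 (mm9) by exact match. Python 3.11.15 with matplotlib 3.10.9 drew the figures. Alternatives were other pseudocounts, filters, scalings and fits, the replicate number as a block, and omission of each library in turn. Limma with voom weights on the recovered reads called 7232 genes in Nrdc-/- v.s. Nrdc+/+, 5098 in Nrdc-/-WT v.s. Nrdc-/- and 7085 in Nrdc-/-WT v.s. Nrdc+/+.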

Additional observations from a re-analysis of the deposited data

How the results depend on the processing

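The counts of calls, over all genes and over the 10 E2F and Dp genes, stayed within 1.5 times their value in 91 of 96 alternatives. The other 5 were all counts of these 10 genes in Nrdc-/-WT v.s. Nrdc-/-, where 5 were called: 3 with a pseudocount of 1 RPKM, 3 with no filter on low values, which tests more genes, and 2 to 5 when each library was left out in turn. Of the single log2 fold changes, 444 kept their direction and side of the threshold, 19 lost and 8 gained a call and 6 turned round, none of them called: E2f8 in Nrdc-/- v.s. Nrdc+/+ ranged from -0.229 to 0.0137 with libraries left out (positive without Nrdc+/+ replicate 1), and in Nrdc-/-WT v.s. Nrdc+/+ E2f1 ranged from -0.136 to 0.0937 (positive without Nrdc-/-WT replicate 2 or Nrdc+/+ replicate 1) and was 0.0469 with quantile normalization, and E2f2 ranged from -0.114 to 0.521 (negative without Nrdc+/+ replicate 2) and was -0.00799 with quantile normalization. Quantile normalization also lost E2f1 (-0.38) and gained E2f4 (0.39) and E2f6 (-0.45) in Nrdc-/-WT v.s. Nrdc-/- and gained E2f5 (0.38) in Nrdc-/-WT v.s. Nrdc+/+, and the cause was not tested. With libraries left out in turn, 7 to 9 of the 10 genes were called in Nrdc-/- v.s. Nrdc+/+ and 7 to 8 in Nrdc-/-WT v.s. Nrdc+/+. A lone library is then assumed to vary like the other lines.

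The replicate numbers do not pair the libraries: deviations from the line means correlated at 0.01 between Nrdc-/-WT and Nrdc-/-, -0.10 between Nrdc-/-WT and Nrdc+/+ and -0.03 between Nrdc-/- and Nrdc+/+. With a replicate block, 7218, 5002 and 7022 genes were called in Nrdc-/- v.s. Nrdc+/+, Nrdc-/-WT v.s. Nrdc-/- and Nrdc-/-WT v.s. Nrdc+/+, and 9, 5 and 7 of the 10. With 2 libraries per line, changes near 1.3-fold and those of E2f2, at 57 to 163 reads, are limited by the spread between libraries.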
